A study of Homo sapiens with 12 samples.

Results

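RNA of the human pancreatic adenocarcinoma lines SW1990 and CFPAC-1 was sequenced after each had been sorted with the GCTM-5 antibody, and 9 genes of mucin O-glycan synthesis are described here, of 23346 genes in the deposited table. They were chosen by symbol: *C1GALT1*, *C1GALT1C1*, *GCNT1*, *GCNT3*, *ST3GAL1*, *ST3GAL2*, *ST6GALNAC1*, *ST6GALNAC2* and *ST6GALNAC4*. All 9 were in the table and all 9 passed the filter on low values, as did 16236 genes in all. Both are established lines that were started from metastases of pancreatic duct carcinoma, CFPAC-1 from a patient with cystic fibrosis. Each line gave 3 samples of antigen positive cells and 3 of antigen negative cells, so 12 samples fell into 4 groups. Apart from the antibody used for staining, no group carried a treatment, a transgene or an induced mutation, and both lines were grown in serum-containing medium. Only cells with strong staining or with none were collected. The antigen is a glycoprotein epitope that is lost on sialidase treatment, so the comparison of positive with negative cells asks which glycosylation genes accompany it. The samples of a group are repeat sorts of 1 line, and p-values here measure the spread between such sorts.

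Mucin-type O-glycans begin when a polypeptide GalNAc transferase adds a single N-acetylgalactosamine (the Tn antigen) to serine or threonine in the Golgi. Galactose added to it by C1GALT1 gives core 1, the T antigen, and a branch of N-acetylglucosamine added by a GCNT enzyme turns core 1 into core 2, which can be lengthened and can carry Lewis antigens. Sialic acid ends these chains: ST3GAL1 and ST3GAL2 cap the galactose of core 1, whereas the ST6GALNAC enzymes attach sialic acid to the GalNAc, and when ST6GALNAC1 does so on a bare Tn it forms sialyl-Tn, an antigen common in pancreatic and other adenocarcinomas. The enzymes compete for shared acceptors, so the balance of their levels is often read beside each single level.

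Promoters are shown for the gene with the widest span of group means, *GCNT3* (1031-fold from lowest to highest), and for the core 1 enzyme *C1GALT1* (1.32-fold) and its chaperone *C1GALT1C1* (2.65-fold). Of the 9 genes, 5 matched an entry of the RefSeq promoter table (GRCh38.p14, 250 bases before to 50 bases after a start), namely *C1GALT1*, *C1GALT1C1*, *GCNT1* with 4 starts, *GCNT3* and *ST6GALNAC4*. No entry was matched for *ST3GAL1*, *ST3GAL2*, *ST6GALNAC1* and *ST6GALNAC2*. Capitals mark GC boxes, searched as GGGCGG on both strands. Each sequence runs 5′ to 3′ on the strand of its gene.
*GCNT3*, chr15:59611533-59611832, plus strand: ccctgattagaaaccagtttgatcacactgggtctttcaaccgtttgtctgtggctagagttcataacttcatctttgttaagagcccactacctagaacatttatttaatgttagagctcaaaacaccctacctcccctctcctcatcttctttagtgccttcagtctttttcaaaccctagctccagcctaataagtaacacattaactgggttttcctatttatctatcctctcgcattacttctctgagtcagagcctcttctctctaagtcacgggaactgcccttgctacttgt
*C1GALT1*, chr7:7182294-7182593, plus strand: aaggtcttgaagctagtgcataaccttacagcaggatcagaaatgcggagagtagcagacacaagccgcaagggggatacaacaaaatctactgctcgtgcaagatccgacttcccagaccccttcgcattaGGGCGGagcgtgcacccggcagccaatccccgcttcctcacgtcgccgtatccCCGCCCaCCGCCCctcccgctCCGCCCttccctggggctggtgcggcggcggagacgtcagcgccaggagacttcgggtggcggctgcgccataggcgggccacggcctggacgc
*C1GALT1C1*, chrX:120630005-120630304, minus strand: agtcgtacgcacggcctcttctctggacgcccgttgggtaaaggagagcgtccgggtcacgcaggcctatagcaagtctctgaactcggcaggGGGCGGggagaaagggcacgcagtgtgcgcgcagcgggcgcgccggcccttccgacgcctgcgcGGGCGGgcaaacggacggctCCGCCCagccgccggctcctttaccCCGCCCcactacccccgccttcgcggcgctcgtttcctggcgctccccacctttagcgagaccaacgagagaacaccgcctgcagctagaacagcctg
The *GCNT3* promoter was 42.3% G or C, below all but 15.5% of the 35116 promoters in the table, and held 3 CpG and no GC box. That of *C1GALT1* was 64.3% G or C with 27 CpG and 4 GC boxes, that of *C1GALT1C1* 69.0% with 37 CpG and 4 GC boxes, and that of *ST6GALNAC4* 79.0% with 39 CpG and 7 GC boxes. The 4 starts of *GCNT1* ranged from 38.3% to 69.0%. Across the table the median was 58.7%, and 45.0% of promoters held a GC box. A TATA box, searched as TATAAA on both strands with no overlap with the GC box, was in none of the 8 windows of these genes and in 11.5% of all. A match is a description of these letters and says nothing of which factor binds.

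On GRCh37, the build of the deposited table, *C1GALT1* lies on chromosome 7 (7196565 to 7288247), *C1GALT1C1* on chromosome X (119759529 to 119763909), *GCNT1* on chromosome 9 (79034766 to 79266119), *GCNT3* on chromosome 15 (59887074 to 59932438), *ST3GAL1* on chromosome 8, *ST3GAL2* on chromosome 16 (70409880 to 70473140) and *ST6GALNAC4* on chromosome 9 (130670165 to 130679320). *ST6GALNAC2* (74561459 to 74583038) and *ST6GALNAC1* (74620843 to 74639868) are neighbours on the minus strand of chromosome 17, 37804 bases apart with no protein-coding gene between them. By GENCODE 44, exons of *ST6GALNAC2* share 1196 bases with a protein-coding gene on the same strand and 578 with a noncoding RNA on the other, those of *ST3GAL2* share 590 bases with an antisense noncoding RNA, and those of *GCNT1* share 262 bases with the opposite gene *PRUNE2*. Values of *ST6GALNAC2* in particular are therefore uncertain. Strand cannot separate its reads from those of the gene on the same strand. For the overlaps on the opposite strand, the use of strand in counting is not given in the sources used here.

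Values are RPKM, reads scaled to gene length and library size, so levels of different genes can be compared per length. Whole reads could be recovered from the RPKM, and both the lowest and the highest library total belonged to positive CFPAC-1, with 9969697 reads for replicate 3 and 26159330 for replicate 1. Summed RPKM of 12 epithelial markers was 1760 to 2042 in negative SW1990, 5393 to 5609 in positive SW1990, 7655 to 8682 in negative CFPAC-1 and 8022 to 10003 in positive CFPAC-1. The duct channel *CFTR* was at 0 in all SW1990 samples and reached at most 0.0869 RPKM in CFPAC-1. Summed RPKM of 8 mesenchymal markers was 1295 to 1456, 203 to 374, 552 to 753 and 421 to 591 in the same order, with *COL1A2* at 0 in positive SW1990. Summed RPKM of 3 endothelial markers was 14.8 to 18.8 in negative SW1990, 1.47 to 2.05 in positive SW1990 and at most 0.485 in CFPAC-1, and the endothelial cadherin *CDH5* was 15.6 ± 1.82 RPKM in negative SW1990 and 1.33 ± 0.255 in positive SW1990 (SD, n = 3). Leukocyte, acinar and islet markers gave at most 3 reads for *PTPRC*, *CD3E*, *INS*, *GCG*, *PRSS1* and *CPA1*, whereas the macrophage-associated *CD68* was read in every sample. Acinar and islet sums were at most 0.617 and 0.210 RPKM. In such bulk samples fewer cells of a kind and less RNA per cell cannot be told apart.

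The core 1 enzyme and its chaperone were read well in every sample. *C1GALT1*, the only transferase that makes core 1, was at 14.2, 14.7 and 14.8 RPKM in negative SW1990 cells and at 12.2, 13.5 and 12.1 in positive ones. In CFPAC-1 it was at 15.7, 16.1 and 16.2 RPKM in negative and 18.4, 17.0 and 14.5 in positive cells. The SW1990 populations did not overlap and the CFPAC-1 populations did, and the highest group mean was only 1.32-fold the lowest. *C1GALT1C1*, also called COSMC, encodes the chaperone without which C1GALT1 does not fold. Its level was 18.4, 27.1 and 24.4 RPKM in negative SW1990, 14.3, 17.5 and 14.6 in positive SW1990, 37.5, 44.4 and 41.1 in negative CFPAC-1 and 35.6, 39.7 and 39.5 in positive CFPAC-1. Every CFPAC-1 sample was above every SW1990 sample, and positive SW1990 cells were below negative ones without overlap.

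Of the core 2 branching enzymes, *GCNT1* was low in all groups and *GCNT3* lay apart between the lines. *GCNT1*, the widely expressed core 2 enzyme, was at 2.64, 2.59 and 2.95 RPKM in negative SW1990, 2.47, 2.66 and 2.47 in positive SW1990, 1.85, 2.48 and 1.99 in negative CFPAC-1 and 3.27, 3.16 and 2.84 in positive CFPAC-1. Neighbouring groups in the order of means overlapped throughout. Positive CFPAC-1 was nevertheless above negative CFPAC-1 without overlap. Between the lines, SW1990 was above CFPAC-1 in negative cells and below it in positive cells, also without overlap. *GCNT3* encodes the mucosal enzyme that makes core 2 and also core 4 and branched chains. It was at 0.131, 0.0773 and 0.127 RPKM in negative SW1990, from 4 to 6 reads a library, and at 0.464, 0.795 and 0.483 in positive SW1990, from 19 to 30 reads. In CFPAC-1 it was at 110.5, 121 and 114 RPKM in negative and 56.2, 121 and 97.3 in positive cells, from 2156 to 5902 reads. The groups of SW1990 did not overlap, those of CFPAC-1 did, and positive replicate 1 was the lowest CFPAC-1 sample.

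For both sialyltransferases that cap core 1 galactose the negative SW1990 cells stood apart, in opposite directions. *ST3GAL1* was at 17.3, 15.1 and 19.1 RPKM in negative SW1990, 27.9, 21.7 and 25.8 in positive SW1990, 24.8, 25.8 and 26.6 in negative CFPAC-1 and 24.5, 25.2 and 34.2 in positive CFPAC-1. Negative SW1990 cells stood below the other 3 groups, which overlapped one another. *ST3GAL2*, which also acts on gangliosides, was at 17.7, 17.9 and 19.7 RPKM in negative SW1990, 8.20, 6.70 and 8.60 in positive SW1990, 6.35, 5.73 and 5.72 in negative CFPAC-1 and 5.38, 5.78 and 5.79 in positive CFPAC-1. Here negative SW1990 stood above the rest, positive SW1990 came next without overlap, and the CFPAC-1 groups overlapped. In summed RPKM of the pair, *ST3GAL2* held 51.9% ± 2.03 (SD, n = 3) in negative SW1990, 23.8% ± 1.14 in positive SW1990, 18.8% ± 1.44 in negative CFPAC-1 and 17.0% ± 2.24 in positive CFPAC-1, while the sum itself stayed between 31.6 and 35.6 RPKM by group mean.

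Among the enzymes that sialylate GalNAc, *ST6GALNAC1*, the sialyl-Tn synthase, varied most. Its level was 2.14, 1.96 and 2.67 RPKM in negative SW1990, 5.00, 10.3 and 8.43 in positive SW1990, 41.7, 58.8 and 58.2 in negative CFPAC-1 and 61.5, 60.7 and 60.7 in positive CFPAC-1. All 4 groups were separate, in that order. *ST6GALNAC2*, which acts on core 1 and Tn, was at 1.92, 1.78 and 3.01 RPKM in negative SW1990, 1.05, 3.16 and 2.17 in positive SW1990, 2.20, 1.85 and 1.88 in negative CFPAC-1 and 2.52, 2.63 and 1.52 in positive CFPAC-1. No group stood apart for this gene, and its means spanned 1.13-fold. *ST6GALNAC4*, which adds a second sialic acid to sialylated core 1, was at 12.1, 17.0 and 17.5 RPKM in negative SW1990, 14.2, 14.2 and 14.7 in positive SW1990, 4.77, 4.14 and 4.39 in negative CFPAC-1 and 6.96, 5.76 and 8.84 in positive CFPAC-1. It was higher in every SW1990 sample than in any CFPAC-1 sample, and higher in positive than in negative CFPAC-1 without overlap. Of the summed RPKM of these 3 genes, *ST6GALNAC4* held 77.4% ± 3.97 in negative and 59.8% ± 9.53 in positive SW1990, whereas *ST6GALNAC1* held 88.9% ± 2.80 in negative and 86.6% ± 1.22 in positive CFPAC-1 (SD, n = 3).

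**Figure D1:**
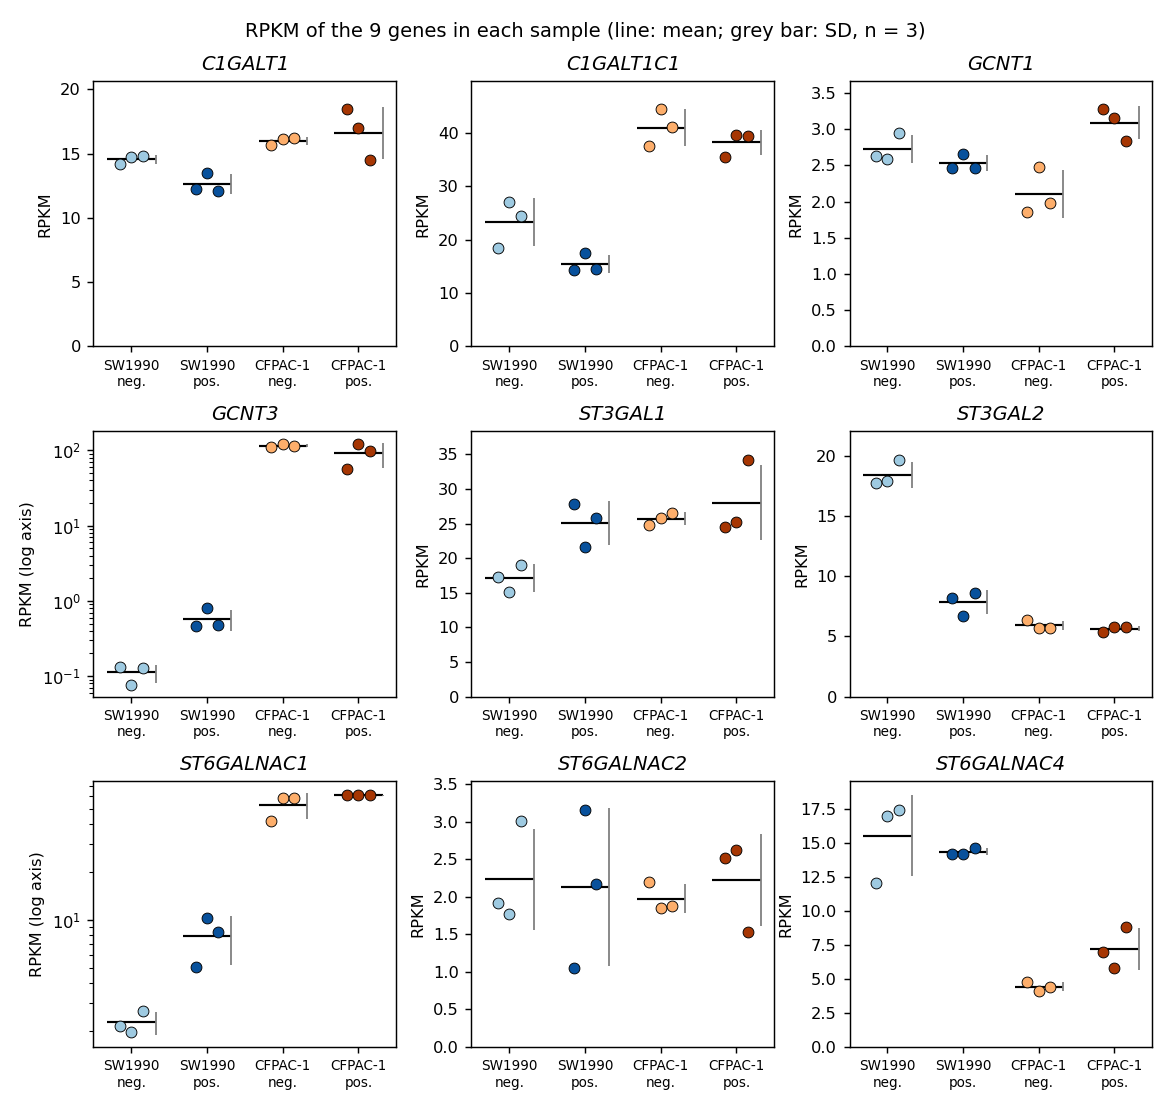
RPKM of each gene (vertical axis, logarithmic for *GCNT3* and *ST6GALNAC1* and from 0 for the others) in the 3 samples of each group, with the mean as a line and the SD as a grey bar. *GCNT3* runs from 0.112 RPKM in negative SW1990 to 115 in negative CFPAC-1, whereas *C1GALT1* stays between 12.6 and 16.6 by group mean.

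In SW1990, antigen positive cells held more *ST6GALNAC1*, *GCNT3* and *ST3GAL1* and less *ST3GAL2* and *C1GALT1C1* than negative cells. Mean *ST6GALNAC1* rose from 2.26 ± 0.367 to 7.92 ± 2.70 RPKM (SD, n = 3), a log2 fold change of 1.72 (SE 0.23, limma adjusted p = 0.000127). Fold changes here are on the log2(RPKM + 0.1) scale, which understates those of low genes. *GCNT3* rose from 0.112 ± 0.0301 to 0.581 ± 0.186 RPKM, with a log2 fold change of 1.66 (SE 0.26, limma adjusted p = 0.000422). This call rests on 4 to 30 reads a library, and it was lost with a pseudocount of 1 (log2 fold change 0.50, limma adjusted p = 0.0984) and with voom on the recovered reads (2.26, adjusted p = 0.0809). *ST3GAL1* rose by 0.55 (SE 0.14, limma adjusted p = 0.0114). *ST3GAL2* fell by 1.23 on the log2 scale (SE 0.11, limma adjusted p = 6.66e-06), from 18.4 ± 1.08 to 7.83 ± 1.00 RPKM, and *C1GALT1C1* fell by 0.58 (SE 0.14, limma adjusted p = 0.00746). The *C1GALT1C1* call was lost when SW1990 was fitted alone (limma adjusted p = 0.0547).

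Thus 3 of 9 genes were higher and 2 of 9 lower in positive SW1990 cells, where 11.3% of all genes tested were higher and 16.9% lower by the same rule. *C1GALT1* had a log2 fold change of -0.21 (95% interval -0.42 to 0.0012) and did not pass, although its samples did not overlap. *GCNT1* (-0.10, interval -0.42 to 0.22), *ST6GALNAC2* (-0.15, interval -0.91 to 0.60) and *ST6GALNAC4* (-0.09, interval -0.45 to 0.27) did not pass either. By the thresholds the study states, over 2-fold with p under 0.01, here read as unadjusted, *GCNT3* and *ST6GALNAC1* were higher (4.59% of all genes were) and *ST3GAL2* lower (7.48% of all genes). With a pseudocount of 1 and with voom these 3 genes became 2, *GCNT3* being lost. Samples did not overlap for 3 higher and 3 lower genes, against 17.9% and 25.4% of all genes. The median change over the 9 genes was -0.10 on the log2 scale, and over all genes -0.04. Epithelial markers moved with the positive gate, 10 of 11 tested being higher, and all 7 mesenchymal markers tested were lower. Their part in the changes of these 9 genes was not tested.

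In CFPAC-1, the genes that passed were *GCNT1* and *ST6GALNAC4*, neither of which passed in SW1990. *GCNT1* rose from 2.10 ± 0.330 to 3.09 ± 0.225 RPKM in positive cells (SD, n = 3), a log2 fold change of 0.54 (SE 0.14, limma adjusted p = 0.0127). That call was lost with CFPAC-1 fitted alone (limma adjusted p = 0.0506) and without negative replicate 1 (0.46, limma adjusted p = 0.0521). *ST6GALNAC4* rose from 4.43 ± 0.318 to 7.19 ± 1.55 RPKM, by 0.67 on the log2 scale (SE 0.17, limma adjusted p = 0.00863). These are 2 of 9 genes, against 22.3% of all genes higher. None of the 9 was lower, against 14.2% of all genes, and none was lower at an unadjusted p under 0.05 in limma or at an adjusted p under 0.05 with voom. When samples were centred on their medians, 47.8% of all calls in CFPAC-1 were in the higher direction, against 61.1% as deposited.

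*GCNT3* in CFPAC-1 was 115 ± 5.59 RPKM in negative and 91.5 ± 32.8 in positive cells, with a log2 fold change of -0.40 (95% interval -0.96 to 0.15). *ST6GALNAC1* was 52.9 ± 9.71 and 61.0 ± 0.426 RPKM, and its change of 0.22 (interval -0.27 to 0.71) did not pass although the samples did not overlap. For *C1GALT1* (0.05), *C1GALT1C1* (-0.10), *ST3GAL1* (0.11), *ST3GAL2* (-0.07) and *ST6GALNAC2* (0.13) the samples overlapped, and the 95% intervals lay within -0.62 to 0.89 on the log2 scale. None of the 9 met the study's thresholds in CFPAC-1 by limma or by voom, where 5.65% of all genes were higher and 4.13% lower by them. Samples did not overlap for 3 genes that were higher in positive cells and for none that was lower, against 28.1% and 20.4% of all genes. The median change over the 9 genes was 0.11 on the log2 scale, and over all genes 0.05. Of the mesenchymal markers 4 of 7 tested were lower in positive CFPAC-1, and of the epithelial markers 3 of 11 were higher and 2 lower. Their part here was not tested.

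**Figure D2:**
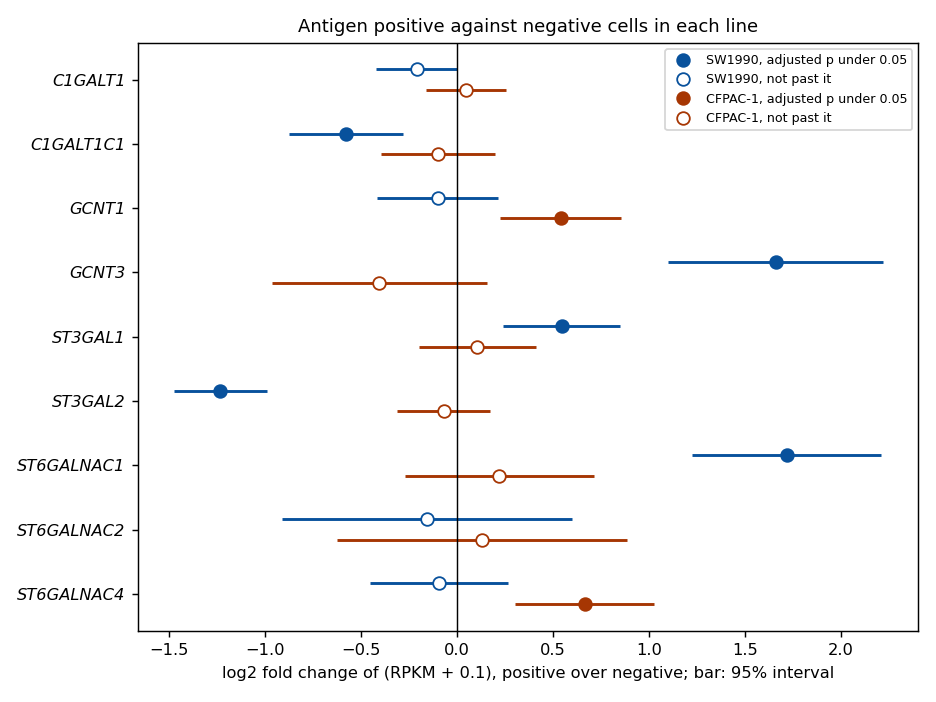
Log2 fold change of RPKM + 0.1 (horizontal axis), antigen positive over negative cells, for each of the 9 genes in SW1990 (blue) and CFPAC-1 (brown), with 95% intervals and filled points at adjusted p under 0.05. *ST6GALNAC1*, *GCNT3* and *ST3GAL2* lie beyond 1 or -1 in SW1990, and no gene does in CFPAC-1.

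The change with the antigen itself differed between the lines for 5 of the 9 genes, where 26.9% of all genes did. The log2 change in SW1990 minus that in CFPAC-1 was 2.06 for *GCNT3* (95% interval 1.27 to 2.86, limma adjusted p = 0.00147), 1.495 for *ST6GALNAC1* (0.80 to 2.19, adjusted p = 0.00484) and -1.16 for *ST3GAL2* (-1.51 to -0.82, adjusted p = 0.000271). The *GCNT3* difference was 0.90 with a pseudocount of 1 (limma adjusted p = 0.0395) and 2.67 with a pseudocount of 0.01. The difference was -0.76 for *ST6GALNAC4* (limma adjusted p = 0.0318) and -0.64 for *GCNT1* (limma adjusted p = 0.0369). All genes had a median of -0.15 in this contrast, and with samples centred on their medians the values became 2.21 for *GCNT3*, 1.64 for *ST6GALNAC1* and -1.01 for *ST3GAL2*, all past the threshold. Centred values of *ST6GALNAC4* (-0.61, limma adjusted p = 0.0813) and *GCNT1* (-0.49, limma adjusted p = 0.111) were not past it, whereas *ST3GAL1* then was (0.59, limma adjusted p = 0.0443, against 0.44 and 0.121 as deposited). Of all genes that differed, the SW1990 change minus the CFPAC-1 change was above 0 in 34.0% as deposited and in 49.99% after centring.

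With 1 sample left out, the differences of *GCNT3*, *ST6GALNAC1* and *ST3GAL2* passed in 12 of 12 fits, that of *ST6GALNAC4* in 3 and that of *GCNT1* in 2. *ST6GALNAC4* passed only without negative SW1990 replicate 1, negative CFPAC-1 replicate 1 or positive CFPAC-1 replicate 2, and *GCNT1* only without negative CFPAC-1 replicate 2 or positive CFPAC-1 replicate 3. *C1GALT1C1* (-0.48, interval -0.90 to -0.06, limma adjusted p = 0.0876), *C1GALT1* (-0.26, interval -0.55 to 0.04) and *ST6GALNAC2* (-0.29, interval -1.35 to 0.78) did not pass. Without negative SW1990 replicate 1 *C1GALT1C1* did (-0.64, limma adjusted p = 0.0138), and without positive CFPAC-1 replicate 3, the shallowest library, *C1GALT1* (-0.35, limma adjusted p = 0.0276) and *ST3GAL1* (0.59, limma adjusted p = 0.0172) did.

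Between the lines, *GCNT3* and *ST6GALNAC1* differed most among the 9 genes. In negative cells *GCNT3* was 1031-fold lower in SW1990 than in CFPAC-1 by the ratio of mean RPKM (log2 fold change -9.10, SE 0.26, limma adjusted p = 7.38e-11), and *ST6GALNAC1* was 23.4-fold lower (-4.49, limma adjusted p = 7.40e-09). *GCNT3* had 4 to 6 reads a library in negative SW1990, and its log2 fold change there ran from -9.92 to -6.71 over 21 settings. In positive cells the gaps were 158-fold for *GCNT3* (log2 fold change -7.03, limma adjusted p = 7.81e-10) and 7.70-fold for *ST6GALNAC1* (-2.99, limma adjusted p = 3.51e-07). *C1GALT1C1* was also lower in SW1990, by 0.83 in negative and by 1.31 in positive cells on the log2 scale. The other direction was taken by *ST6GALNAC4*, 3.50-fold higher in negative and 2.00-fold higher in positive SW1990 cells, and by *ST3GAL2*, 3.11-fold and 1.39-fold higher (all at a limma adjusted p under 0.05).

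In negative cells 3 of 9 genes were higher and 4 lower in SW1990, where 40.7% and 28.2% of all genes were. In positive cells 2 were higher and 4 lower, against 32.9% and 29.3%. *ST3GAL1* was lower in negative SW1990 (log2 fold change -0.59, limma adjusted p = 0.00245) and differed by -0.15 in positive cells (95% interval -0.45 to 0.16). *C1GALT1* was lower in positive SW1990 (-0.39, limma adjusted p = 0.00369), whereas in negative cells its difference was -0.13 (interval -0.34 to 0.08) as deposited and passed after centring (-0.32, limma adjusted p = 0.0133). *GCNT1* was higher in negative SW1990 (0.37, limma adjusted p = 0.0399), a call that was lost after centring (0.18, limma adjusted p = 0.309) and held in 11 of 21 settings. The median of all genes in negative cells was 0.19, and centring moved *GCNT3* to -9.29, *ST6GALNAC1* to -4.67, *ST3GAL2* to 1.43 and *ST6GALNAC4* to 1.58. Of all genes called in negative cells 59.1% were higher in SW1990, and 50.2% after centring. Of the epithelial markers 10 of 11 tested were lower and 1 higher in negative SW1990 than in negative CFPAC-1, and 4 were lower and 1 higher in positive cells. Of the mesenchymal markers 6 of 7 tested were higher and 1 lower in negative SW1990, and 3 were higher and 2 lower in positive cells. Both endothelial markers tested were higher in negative SW1990, and 1 in positive cells. The part of these markers was not tested. These contrasts use the same samples as those of positive against negative cells, so they are no separate evidence for them.

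**Figure D3:**
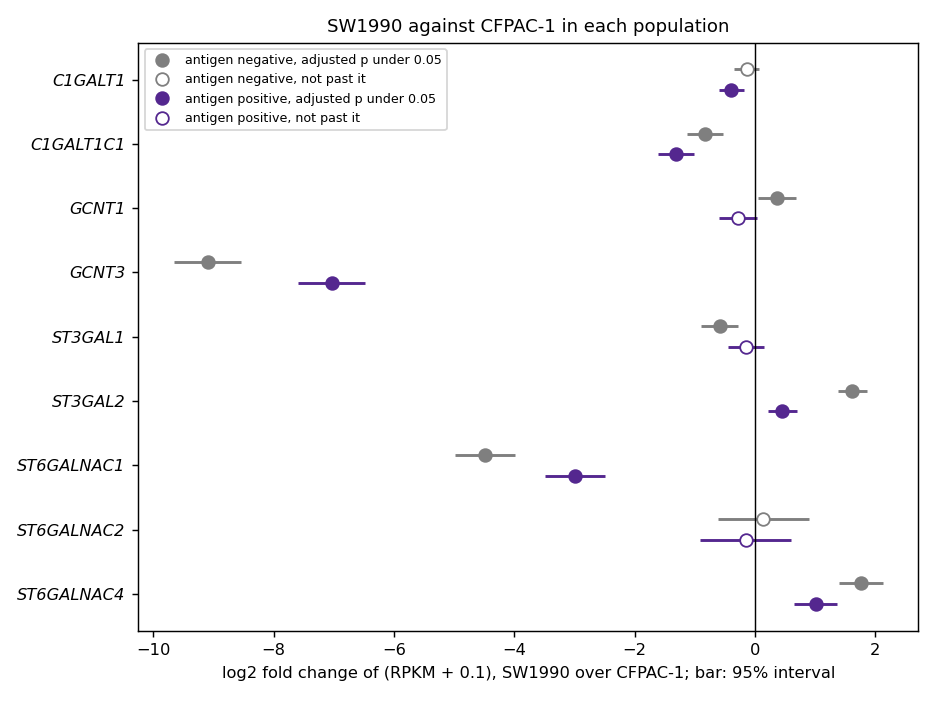
Log2 fold change of RPKM + 0.1 (horizontal axis), SW1990 over CFPAC-1, for each of the 9 genes in antigen negative (grey) and antigen positive cells (purple), with 95% intervals and filled points at adjusted p under 0.05. *GCNT3* (-9.10 and -7.03) and *ST6GALNAC1* (-4.49 and -2.99) lie far to the left of the others.

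Ratios within a sample compare the transcript levels of enzymes that share an acceptor, and any scaling between samples cancels in them. Enzyme amounts and activities were not measured. The ratio of *GCNT3* to *GCNT1* RPKM was 0.0498, 0.0299 and 0.0432 in negative SW1990, from 4 to 6 *GCNT3* reads a library, and 0.188, 0.299 and 0.195 in positive SW1990. In CFPAC-1 it was 59.7, 49.0 and 57.6 in negative and 17.2, 38.3 and 34.3 in positive cells. So *GCNT1* held 96.1% ± 0.942 of the summed RPKM of the pair in negative SW1990, and *GCNT3* held 98.2% ± 0.188 in negative CFPAC-1 (SD, n = 3). Positive minus negative, the log2 ratio was 2.47 in SW1990 and -0.97 in CFPAC-1, without overlap in either line (exact permutation p = 0.1 in each, 2-sided, the smallest that 3 against 3 samples allow, so that no ratio could reach p under 0.05).

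The ratio of *ST6GALNAC1* to *C1GALT1*, which compete for Tn, was 0.151, 0.133 and 0.180 in negative and 0.409, 0.765 and 0.698 in positive SW1990 (log2 difference 1.97, exact permutation p = 0.1). In CFPAC-1 it was 2.66, 3.64 and 3.59 in negative and 3.33, 3.58 and 4.19 in positive cells (0.17, exact permutation p = 0.6). The transcript of the core 1 enzyme was thus above that of the sialyl-Tn synthase in all SW1990 samples and below it in all CFPAC-1 samples. The ratio of *ST3GAL1* to summed *GCNT1* and *GCNT3* was 5.67 to 6.23 in negative and 6.27 to 9.49 in positive SW1990 (0.41, exact permutation p = 0.1), and in CFPAC-1 0.208 to 0.228 in negative cells and 0.203 to 0.413 in positive cells (0.49, exact permutation p = 0.4). Adjusted over the 6 ratio comparisons, the exact permutation p-values of 0.1, 0.4 and 0.6 became 0.15, 0.48 and 0.6.

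**Figure D4:**
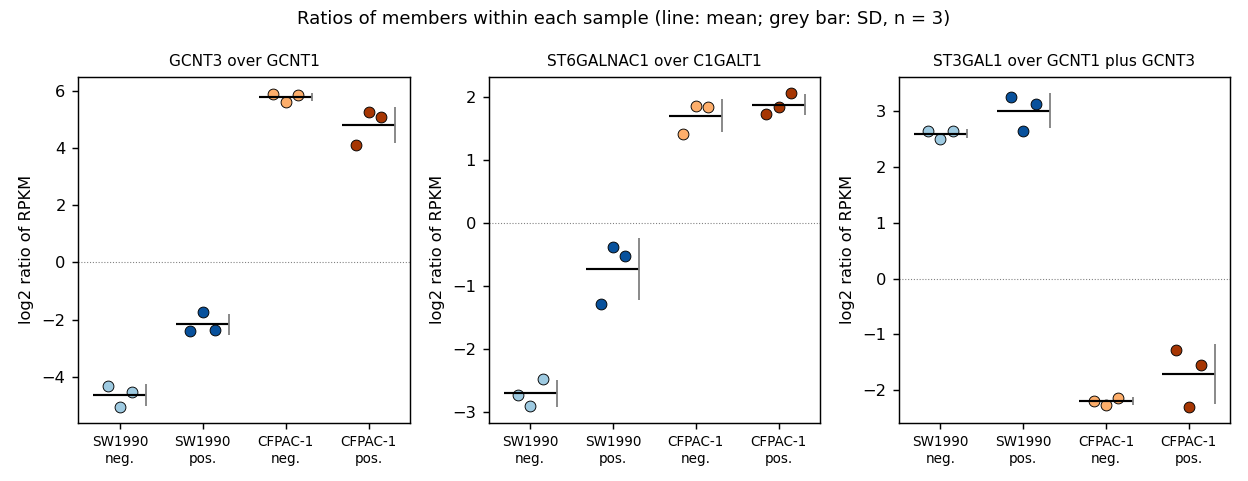
Log2 ratio of RPKM within each sample (vertical axis) for 3 pairs of enzymes, by group, with the mean as a line and the SD as a grey bar. The SW1990 and CFPAC-1 samples lie on opposite sides of 0 in all 3 panels.

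Other genes of core synthesis, extension and capping were followed through a list of 17, all tested. In SW1990 5 were higher, 3 lower and 9 did not pass, with a median log2 fold change of 0.20, and in CFPAC-1 3 were higher, 3 lower and 11 did not pass, with a median of -0.07. *B3GNT3*, which extends core 1, went from 5.42 ± 1.504 to 59.1 ± 8.53 RPKM in SW1990 (log2 fold change 3.45) and from 140 ± 11.7 to 95.1 ± 21.2 in CFPAC-1 (-0.58; limma adjusted p = 0.0386). *CHST4*, a sulphotransferase of GlcNAc on mucin chains, was higher in both lines (2.48 and 0.95; limma adjusted p = 0.0188 in CFPAC-1). *ST6GALNAC5*, a sialyltransferase of gangliosides, had no reads in negative SW1990 and 2 to 11 in positive SW1990. Its positive mean was 2.86-fold a floor of 3 reads per negative library, but the lowest positive sample, with 2 reads, had fewer reads than that floor. In CFPAC-1 *ST6GALNAC5* was 1.69 higher on the log2 scale in positive cells.

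*ST3GAL3* (log2 fold change -0.81 in SW1990 and -0.57 in CFPAC-1) and *ST6GALNAC6* (-0.92 and -0.36), both sialyltransferases, were lower in positive cells of both lines at a limma adjusted p under 0.05. *ST6GALNAC3* was the most reduced of the list in SW1990 (-2.72), from 61 to 69 reads in negative to 2 to 4 in positive cells.

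Upstream, of a list of 16 polypeptide GalNAc transferases 13 passed the filter. Of these 5 were higher and 1 lower in positive SW1990, and 7 higher and 3 lower in positive CFPAC-1. The largest change in SW1990 was that of *GALNT3* (log2 fold change 2.51), from 7.86 ± 1.57 to 45.2 ± 8.997 RPKM, and the lowest called that of *GALNT11* (-0.48). In CFPAC-1 these were *GALNT14* (0.99) and *GALNT9* (-1.10). *GALNT9* was higher in positive SW1990 (0.88, limma adjusted p = 0.0403), where *GALNT14* did not pass (-0.17). *GALNT3* was higher (0.60) and *GALNT11* lower (-0.32) in positive CFPAC-1 too. Medians over the transferases were 0.19 in SW1990 and 0.43 in CFPAC-1, with all genes at -0.04 and 0.05. Of 15 genes that make or carry the sugar donors, 6 were higher and 1 lower in SW1990, from *SLC35A1*, the CMP-sialic acid transporter (0.73), to *GALK1*, galactokinase (-1.29). Both went the other way in CFPAC-1, *SLC35A1* lower (-0.45, limma adjusted p = 0.00248) and *GALK1* higher (0.45, limma adjusted p = 0.0492). Of the 15 genes, 4 were higher and 3 lower in CFPAC-1, from *NANS*, sialic acid synthase (0.58), to *PGM3*, a mutase on the way to UDP-GlcNAc (-0.63). Neither *NANS* (0.03) nor *PGM3* (-0.39) passed in SW1990. Medians of this list were 0.09 and 0.12. None of the 3 sialidases tested passed in limma in either line. At an unadjusted p under 0.05 none was counted in SW1990 and 2 in CFPAC-1, *NEU3* (0.29) and *NEU4* (-0.82), both named after their values were seen, and with voom 1 was called there, lower in positive cells.

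**Figure D5:**
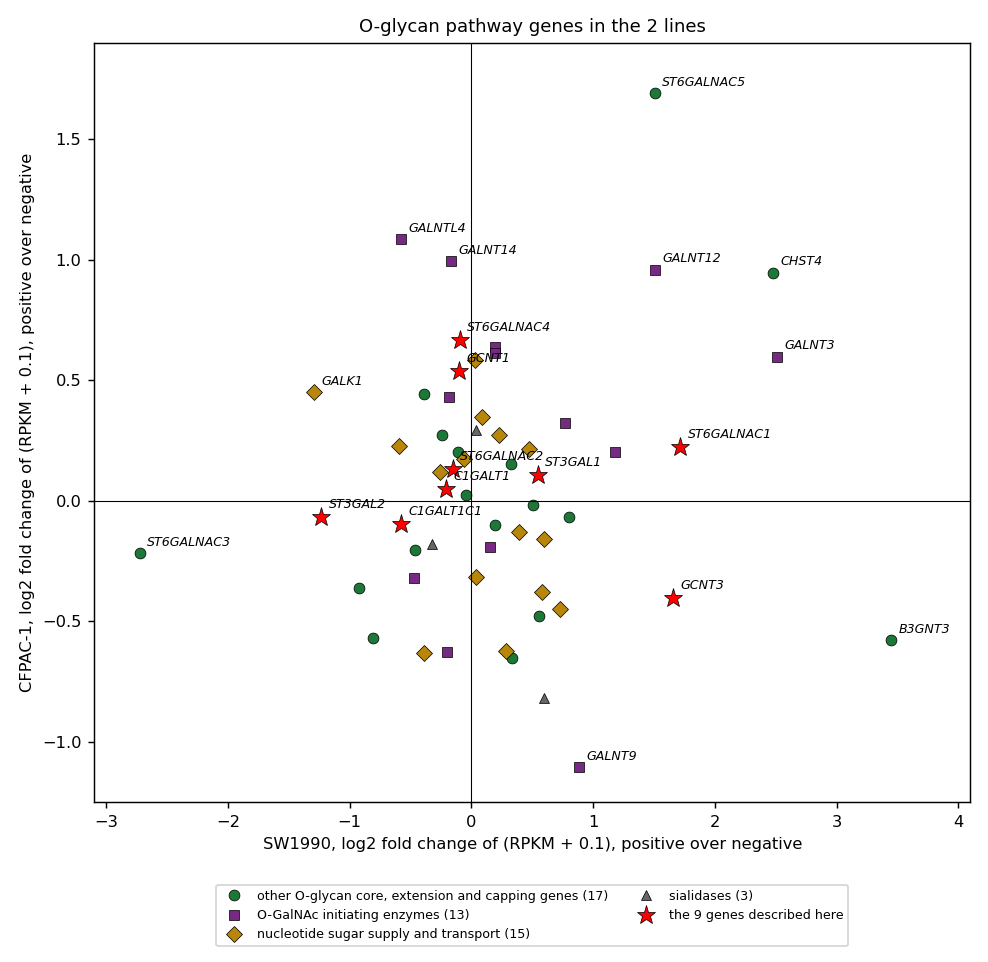
Log2 fold change of RPKM + 0.1, antigen positive over negative cells, in SW1990 (horizontal axis) and CFPAC-1 (vertical axis) for the 9 genes (stars) and the tested genes of 4 pathway lists. *B3GNT3* (3.45 and -0.58) and *GCNT3* (1.66 and -0.40) lie to the lower right.

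The genes with the patterns most like those of *GCNT3*, *ST6GALNAC1* and *ST3GAL2* were found by the smallest root mean square difference between centred log2 profiles over the 12 samples, among the 13258 genes whose RPKM averaged 1 or more. For *GCNT3*, whose own profile had an SD of 4.09, they were *TMEM45B* (0.37), *AQP5* (0.44), a water channel of secretory epithelia, and *FAM50B* (0.57). In negative and positive SW1990 *TMEM45B* averaged 0.0668 and 0.212 RPKM and *FAM50B* 0 and 0.0243, near or below the 0.1 added before the log. *AQP5* had group means of 0.368, 1.74, 291 and 214 RPKM in negative SW1990, positive SW1990, negative CFPAC-1 and positive CFPAC-1. For *ST6GALNAC1*, with an SD of 1.98, they were *DSC2* (0.20), a desmosomal cadherin, *C9orf152* (0.36) and *POF1B* (0.36). *DSC2* had means of 0.596, 2.17, 13.7 and 16.9 RPKM in the same order. In negative SW1990 *C9orf152* and *POF1B* averaged only 0.105 and 0.136 RPKM. For *ST3GAL2*, with an SD of 0.68, they were *C11orf95* (0.16), *B3GALTL* (0.16), a glucosyltransferase of O-fucose chains, and *LIMD2* (0.16). *B3GALTL* had means of 6.34, 2.99, 2.30 and 2.17 RPKM.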

How the data were processed

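RNA-seq of sorted SW1990 and CFPAC-1 cells was analysed, with 3 samples in each of 4 groups taken from the labels. The deposited values are RPKM, which the authors made with QuasR after alignment to hg19 (GRCh37), dividing read counts by library size and gene length. The gene annotation used, its strand setting and the QuasR version are not given in the sources used here. Per the labels, polyadenylated RNA went into a SureSelect strand-specific library, whereas the paper names a TruSeq kit. Both sources name Illumina sequencing.

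Genes whose RPKM averaged 0.1 or more across the 12 samples were kept, 16236 of 23346. Log2(RPKM + 0.1) was fitted with limma 3.58.1 in R 4.3.3, as 4 group means with a trended empirical Bayes variance, and p-values were adjusted by Benjamini-Hochberg over all genes kept. A gene was called at an adjusted p under 0.05. The second criterion was the fold of 2 with p under 0.01 that the study states. TCC, which the study used, was not run. Ratios within samples were compared by exact permutation tests, 2-sided. On simulated SW1990 data with 16236 genes, 67% of 2-fold and 93% of 4-fold changes were called, as were 0.0624% of unchanged genes.

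Whole reads were recovered from the RPKM through the lengths of single-exon genes in GENCODE 44 on GRCh37. All 19654 genes above 0 gave whole reads within 0.01 of a read in every sample, and on simulated data 12 of 12 library totals and the reads of 99.9% of 2000 genes drawn from those above 0 in at least 6 samples were recovered. The shortest length giving whole reads was kept, so for genes above 0 in fewer samples the recovered reads can be too few. Totals from 9969697 to 26159330 reads set the precision of low genes, and reads are given for some of them. Reads are fragments counted without molecular identifiers, so they bound counting error only. Replicates of every group differed beyond sampling noise, and none was merged.

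The 9 genes and all lists were chosen with earlier results of these data known. From each list the genes named are those with the largest and the smallest change among those called in a line, and in the list of core, extension and capping genes also those called in both lines. One marker gene is not reported here. *GALNT16* and *GALNT18* were found under their older symbols. The shares of summed RPKM within enzyme families were computed after the values had been seen. Alternatives were other pseudocounts and filters, quantile normalization, centring, a replicate block, each line fitted alone, an adjusted p under 0.01 in the study criterion, voom on recovered reads and each sample left out. Promoters come from RefSeq (GRCh38.p14), and Python 3.11.15, pandas 2.3.3, numpy 2.4.6 and matplotlib 3.10.9 were used.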

Additional observations from a re-analysis of the deposited data

Results flagged for a closer look

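For 5 of the 9 genes the change with the antigen differed between SW1990 and CFPAC-1 in a limma test of the difference itself. The log2 change in SW1990 minus that in CFPAC-1 was 2.06 for *GCNT3*, 1.495 for *ST6GALNAC1* and -1.16 for *ST3GAL2*, each past the threshold in 21 of 21 settings. It was -0.76 for *ST6GALNAC4* and -0.64 for *GCNT1*, which passed in 10 and 8 of 21 settings. By the same test 26.9% of all genes differed between the lines.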

How the results depend on the processing

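Of the counts of genes called, 2 moved by over 1.5 times. The 5 genes whose change differed between the lines became 3 with quantile normalization and 3 to 6 with 1 sample left out, being 3 without negative SW1990 replicates 2 or 3, positive SW1990 replicates 1, 2 or 3, negative CFPAC-1 replicate 3 or positive CFPAC-1 replicate 1. The 2 genes called in CFPAC-1 became 1 with CFPAC-1 fitted alone and 1 to 2 with 1 sample left out, being 1 without negative CFPAC-1 replicate 1. Directions that turned belonged to changes past no threshold. With samples centred on their medians, *C1GALT1* in CFPAC-1 was -0.052 and *ST6GALNAC2* between lines in negative cells -0.052. With quantile normalization, *GCNT1* in SW1990 was 0.038, *ST6GALNAC2* in SW1990 0.011, *C1GALT1* in CFPAC-1 -0.052 and *ST6GALNAC2* in negative cells -0.034. With 1 sample left out, *ST6GALNAC2* ran from -0.49 to 0.26 in SW1990, from -0.0031 to 0.37 in CFPAC-1, from -0.62 to 0.13 in the difference, from -0.089 to 0.28 in negative and from -0.49 to 0.26 in positive cells. *ST6GALNAC4* in SW1990 ran from -0.26 to 0.0012, *C1GALT1* in CFPAC-1 from -0.030 to 0.14, *ST3GAL1* in CFPAC-1 from -0.046 to 0.19 and *ST3GAL1* between lines in positive cells from -0.23 to 0.0049. *C1GALT1* in SW1990 passed only without positive CFPAC-1 replicate 3 (limma adjusted p = 0.0422), with its log2 fold change still at -0.21. The fit shares the spread of a gene over all 4 groups, so leaving out a CFPAC-1 sample can move p-values of SW1990. The cause was not tested. The changes of *ST3GAL2*, *ST6GALNAC1* and *ST3GAL1* in SW1990 and of *ST6GALNAC4* in CFPAC-1 passed in 22 of 22 settings. Same-numbered samples correlated in their deviations by 0.18, 0.016 and 0.12 in SW1990 and by -0.020, 0.0013 and -0.059 in CFPAC-1. Differently numbered samples ran from -0.25 to 0.16 in SW1990 and from -0.033 to 0.042 in CFPAC-1. These values do not settle whether the numbers pair samples. The paper mentions triplicate sorts but names no pairing by number, so the main fit held no replicate block. With the replicate block 5 genes changed in SW1990, 2 in CFPAC-1 and 5 differed between lines, with *C1GALT1C1* gained in the difference (-0.48, limma adjusted p = 0.0344) and *GCNT1* lost (-0.64, limma adjusted p = 0.0708). Ratios paired by number gave exact permutation p-values of 0.25 or 0.5, the smallest possible being 0.25. The block was not run for SW1990 against CFPAC-1 within negative or within positive cells, and the difference between the lines cannot be fitted with 1 line alone. Depth limits *GCNT3* in SW1990 above all, with 4 to 30 reads a sample.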
